A study of Mus musculus with 6 samples.

Results

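The genes described here encode secreted proteins of the acute phase response: 4 serum amyloid A genes (Saa1, Saa2, Saa3 and Saa4), 3 orosomucoid genes (Orm1, Orm2 and Orm3), lipocalin 2 (Lcn2) and the pentraxins serum amyloid P component (Apcs) and C-reactive protein (Crp). They were taken by symbol from a deposited table of 29543 mouse genes, each symbol stood on 1 row, and all 10 were found. The study sequenced liver RNA of mice as 6 libraries. In the IR injury group (3 libraries) the liver was made ischemic and reperfused after a laparotomy, and in the Sham group (3 libraries) the laparotomy was done alone, so that both groups had the abdominal surgery. No label ties a library to an animal (each is only numbered as a biosample), so the p-values below rest on library-to-library spread that could be technical. The sources used here do not give strain, sex, age or the times of ischemia and reperfusion. Values are FPKM, fragments scaled to gene length and library depth, as deposited. Depths rebuilt from the values were 53622229 to 71752584 reads per library. The tissue label was met by its markers: albumin (Alb) stood between 36750 and 49550 FPKM in the 6 libraries, and the adipocyte hormone genes Lep and Retn were listed at 0 in all of them.

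The acute phase response is the change in plasma proteins that the liver makes after injury or infection. Interleukin 6 acts on hepatocytes through the transcription factor STAT3, and interleukin 1 and tumor necrosis factor act through NF-kappaB and C/EBP factors, and serum amyloid A is a classical readout of both arms. Mouse Saa1 and Saa2 are the inducible forms that travel on high-density lipoprotein, Saa4 is known as the constitutive form, and Saa3 is made in many cells outside the hepatocyte, macrophages and adipocytes among them. Orosomucoid, or alpha-1-acid glycoprotein, binds drugs and lipids in plasma, lipocalin 2 withholds iron from bacteria by binding their siderophores, and the pentraxins bind microbial and dead-cell surfaces. In mice Apcs is the stronger reactant of the pentraxin pair, while CRP holds that place in humans.

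The genes lie in clusters. On mm10 chromosome 7, Saa3 (46711998 to 46715700), Saa4 (46727998 to 46732603) and Saa1 (46740497 to 46742980) are on the minus strand and Saa2 (46751790 to 46754313) is on the plus strand. On chromosome 4, Orm1 (63344560 to 63348163), Orm3 (63356162 to 63359511) and Orm2 (63362449 to 63365878) follow each other on the plus strand. Crp (172698055 to 172833031, plus strand) and Apcs (172893961 to 172895041, minus strand) share a stretch of chromosome 1, and Lcn2 (32384633 to 32388252, minus strand) is on chromosome 2. All 10 are annotated as protein coding.

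The 250 bases before the RefSeq start site (assembly GRCm38.p6) are shown for the 3 genes with the largest rises (Saa2, Lcn2 and Saa1) and the pair with the smallest (Saa4 and Crp), 5′ to 3′ on the strand of the gene. Capitals mark matches to the consensus of NF-kappaB, to the C/EBP pattern TTNNGNAAT, to the STAT pattern TTCNNNGAA or to the interleukin 6 response element CTGGGAA, each on both strands, or to TATAAA on the gene's strand. They stand at chr7:46742981-46743230 (minus, Saa1), chr7:46751583-46751832 (plus, Saa2), chr2:32387740-32387989 (minus, Lcn2), chr7:46732604-46732853 (minus, Saa4) and chr1:172697806-172698055 (plus, Crp).
Saa1: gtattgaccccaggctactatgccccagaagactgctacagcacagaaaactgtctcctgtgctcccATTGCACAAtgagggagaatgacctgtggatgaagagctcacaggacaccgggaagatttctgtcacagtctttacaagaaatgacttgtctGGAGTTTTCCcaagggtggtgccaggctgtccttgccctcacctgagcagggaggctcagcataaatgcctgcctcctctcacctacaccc
Saa2: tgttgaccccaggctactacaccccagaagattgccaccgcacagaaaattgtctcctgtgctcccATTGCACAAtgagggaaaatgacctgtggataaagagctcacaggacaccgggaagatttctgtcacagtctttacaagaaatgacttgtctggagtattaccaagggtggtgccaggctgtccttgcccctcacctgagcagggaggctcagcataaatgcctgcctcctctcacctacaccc
Lcn2: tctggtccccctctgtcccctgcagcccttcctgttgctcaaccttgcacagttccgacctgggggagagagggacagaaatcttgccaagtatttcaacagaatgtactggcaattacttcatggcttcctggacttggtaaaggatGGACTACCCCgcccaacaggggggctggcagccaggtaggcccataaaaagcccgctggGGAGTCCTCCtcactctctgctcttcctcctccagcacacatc
Saa4: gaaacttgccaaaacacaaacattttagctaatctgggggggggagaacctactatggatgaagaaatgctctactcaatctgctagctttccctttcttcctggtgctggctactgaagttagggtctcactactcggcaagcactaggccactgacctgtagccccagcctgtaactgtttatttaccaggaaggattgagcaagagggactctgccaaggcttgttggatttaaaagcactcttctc
Crp: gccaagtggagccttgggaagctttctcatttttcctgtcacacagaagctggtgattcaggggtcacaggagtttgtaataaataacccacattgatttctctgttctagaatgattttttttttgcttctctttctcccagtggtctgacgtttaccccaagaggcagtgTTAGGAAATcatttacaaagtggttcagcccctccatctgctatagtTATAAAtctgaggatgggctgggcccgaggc

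The Saa1 and Saa2 windows were identical in 238 of 251 aligned positions (94.8%), whereas Saa1 and Saa4 matched in 127 of 298 (42.6%). Both Saa1 and Saa2 held the C/EBP pattern, at -183 to -175 and at -184 to -176 from the start site. Saa1 also held an NF-kappaB consensus at -91 to -82, and the Saa2 window held no match to it. Lcn2 had matches to NF-kappaB at -102 to -93 and at -43 to -34, and Crp had a C/EBP match at -78 to -70 and TATAAA at -31 to -26. The Saa4 window held none of the 5 patterns. Over the 9 genes with a window, 3 matched NF-kappaB (Lcn2, Saa3 and Saa1), against 23.2% of 32851 windows of the same length. The C/EBP pattern was in 4 (Crp, Orm2, Saa1 and Saa2), against 10.2% of all windows. The STAT pattern and the interleukin 6 element were found in Apcs alone, against 7.02% and 9.10% of all windows, and TATAAA was found in Crp, Orm3 and Orm2, against 7.59%. The matches are descriptions of letters in these windows and say nothing of binding.

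The comparison of IR injury with Sham asked how RNA of these secreted proteins differed after ischemia and reperfusion. All 10 genes rose (limma on log2(FPKM + 1), Benjamini-Hochberg adjusted p under 0.05), against a background of 24.3% of the 10316 genes tested that were higher in IR injury. Of all genes tested, 53.8% were lower and 78.1% passed in either direction, so that a pass alone was common. In all 10 the groups did not overlap, as in 25.4% of all genes with every IR library above every Sham library. By at least 1 on the log2 scale 9 of the 10 rose, against 6.68% of all genes. The median log2 fold change of the 10 was 2.82, beside -0.23 for all genes tested. Where libraries were scaled by median-of-ratios size factors, which put the median of all genes at 0.01, all 10 were again higher. That scaling moved the split of all genes from 2505 higher and 5548 lower to 3970 higher and 3874 lower. These are values of whole tissue, in which a change in the number of cells of a type and a change in RNA per cell cannot be told apart.

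**Figure D1:**
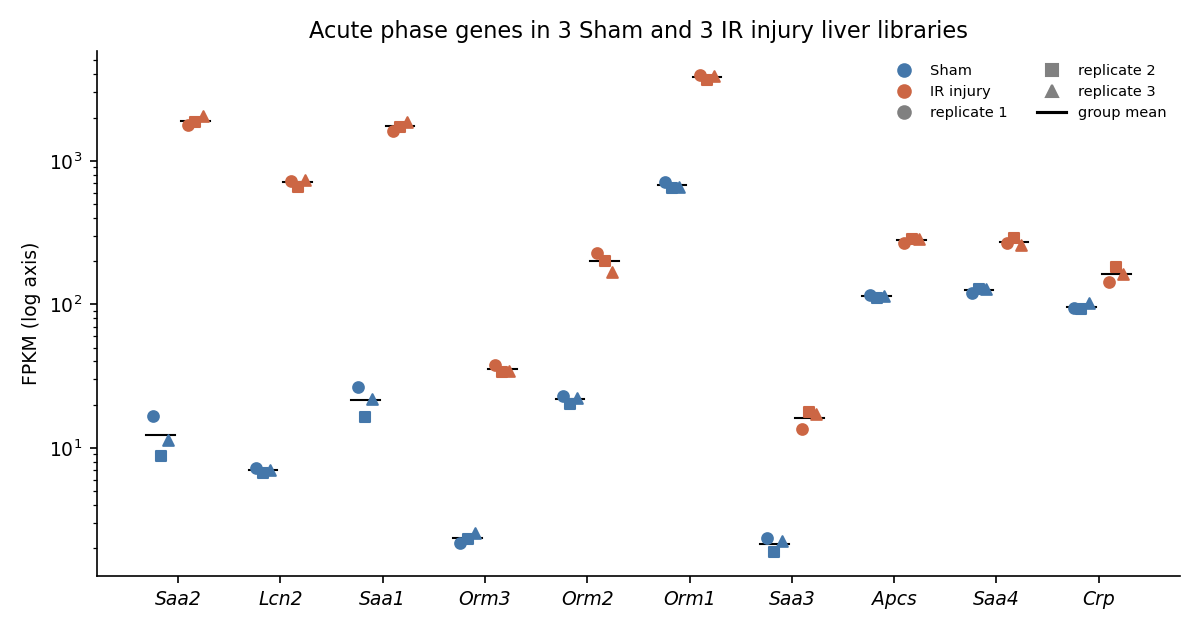
FPKM on a log axis of each gene in the 3 Sham (blue) and 3 IR injury (orange) libraries, with a symbol for each replicate number and a line at the group mean, ordered by log2 fold change. For every gene the 3 IR injury libraries lie above the 3 Sham libraries, from Saa2 with means of 12.3 and 1899 to Crp with means of 96.6 and 163.

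Saa2 had the largest log2 fold change of all genes tested on the log2(FPKM + 1) scale, and with a pseudocount of 0.1 it was the third, behind the pseudogene Gm11212 among others. Its FPKM was 16.6, 8.77 and 11.4 in Sham libraries 1, 2 and 3 and 1775, 1879 and 2043 in the IR libraries. The lowest IR library was thus 107 times the highest Sham library, and the means stood at a ratio of 155 (log2 fold change 7.20, SE 0.191, limma adjusted p = 6.49e-08). Saa1, its neighbour, was at 26.5, 16.4 and 21.9 FPKM in Sham and at 1601, 1731 and 1879 in IR. The ratio of its means was 80.4 (6.29, SE 0.153, limma adjusted p = 4.35e-08), the fourth largest log2 fold change on that scale. Sham library 1 was the highest and Sham library 2 the lowest of the Sham group for both genes, with coefficients of variation of 23.2% for Saa1 and 32.6% for Saa2. Over all tested genes of a mean of at least 10 FPKM the median was 4.68%. In IR injury the coefficients were 8.0% and 7.11%, and the 3 libraries stood in the same order for both genes.

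The balance between the pair differed between the groups. The FPKM of Saa1 was 1.59, 1.87 and 1.93 times that of Saa2 in the Sham libraries and 0.902, 0.921 and 0.920 times that of Saa2 in the IR libraries. By FPKM Saa1 was therefore the more abundant transcript in every Sham library and Saa2 in every IR library. With reads divided by coding transcript length, as described below, the ratios were 1.68, 1.97 and 2.04 in Sham and 0.950, 0.971 and 0.969 in IR. The order was thus the same, but the pair was nearly level in IR. The log2 ratio fell by 0.97, and the exact two-sided permutation p was 0.1, the smallest that 3 libraries against 3 allow, so that none of the 5 within-library ratios examined could pass 0.05 (Benjamini-Hochberg adjusted p = 0.1 for each). The genes are close paralogs, whose reads the counting could have split: of the 50-base words in the coding transcript of Saa1, 13.2% also occur in transcripts of Saa2, and no 100-base word occurs in another gene. With the pair summed before the fit, a step added after seeing the data, the log2 fold change was 6.73.

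Saa4 and Saa3 changed less. Saa4 was at 121, 127 and 129 FPKM in Sham and at 269, 288 and 259 in IR. Its libraries were tight in both groups, and its mean was 2.17 times as high (log2 fold change 1.11, SE 0.0532, limma adjusted p = 9.31e-07). In Sham its FPKM was 2.80, 5.06 and 3.87 times that of Saa1 and Saa2 together, and in IR 0.0798, 0.0798 and 0.0661 times (log2 difference -5.66, exact permutation p = 0.1). With reads divided by coding transcript length, as described below, the Sham ratios were 0.702, 1.27 and 0.968, so that Saa4 stood above the pair together in Sham library 2 alone, while the IR ratios were 0.0167 to 0.0202. By either length Saa4 went from the most abundant transcript of the family in every Sham library to a small share of it in every IR library. Saa3 was at 2.34, 1.89 and 2.24 FPKM in Sham and at 13.6, 17.7 and 17.1 in IR, a ratio of 7.48 (2.43, SE 0.104, limma adjusted p = 5.54e-07). It was the least abundant of the 10 in both groups by the deposited scale, with 313 to 407 reads behind its Sham values and 2031 to 3175 behind those of IR. The pseudogene Saa-ps between Saa4 and Saa1 stayed under 0.12 FPKM in all libraries, and of the protein-coding genes that flank the cluster Hps5, a lysosome biogenesis gene, fell from 3.27 ± 0.219 to 1.94 ± 0.0714 (SD, n = 3), a log2 fold change of -0.54. Saal1, on the other side, was under the filter at 0.566 ± 0.0883 and 0.569 ± 0.0860.

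**Figure D2:**
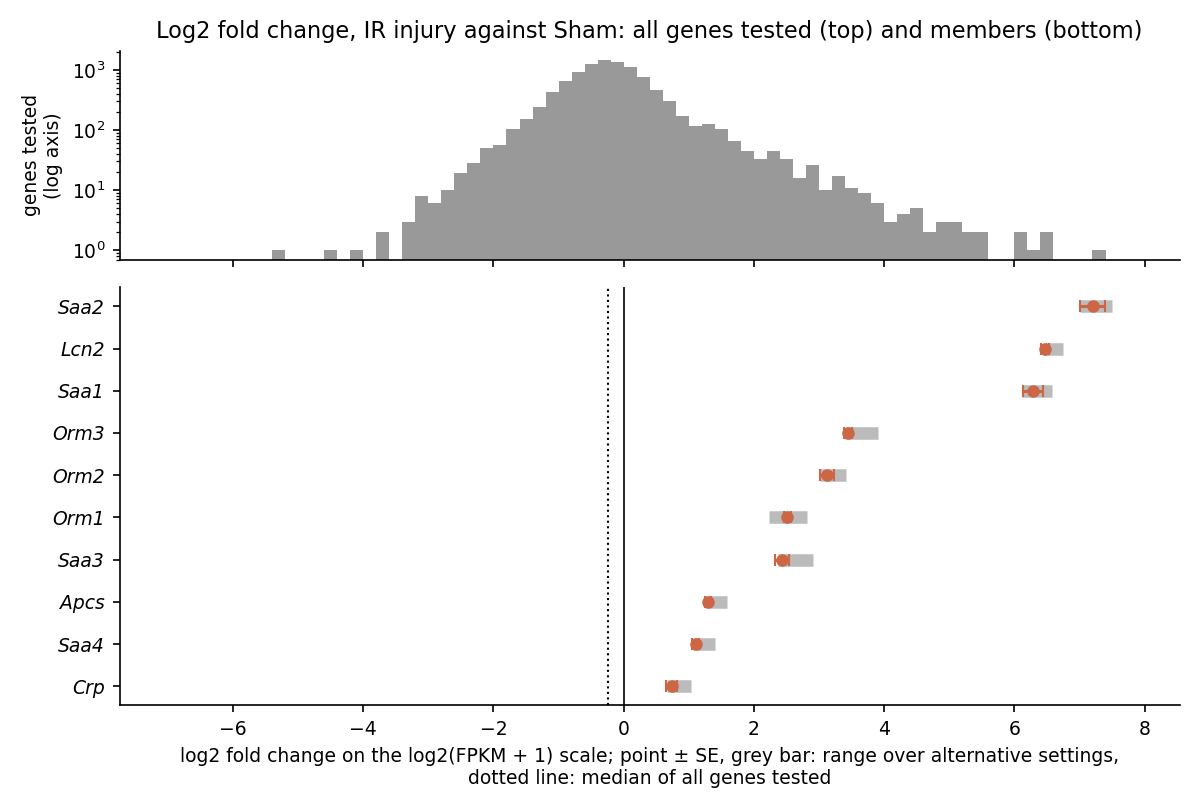
Top: number of genes (log axis) by log2 fold change for all 10316 genes tested. Bottom: log2 fold change of each of the 10 genes (point, with SE) and its range over the alternative settings (grey bar). The dotted line is the median of all genes tested (-0.23), and the 10 genes lie between 0.74 (Crp) and 7.20 (Saa2).

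Among the orosomucoids the order of level and the order of fold change were opposite. Orm1, the main liver form, was at 711, 648 and 661 FPKM in Sham and at 3987, 3641 and 3917 in IR, the highest deposited level of the 10 genes in both groups. Its mean was 5.71 times as high (log2 fold change 2.51, SE 0.0544, limma adjusted p = 3.13e-08). Orm2 went from 23.1, 20.2 and 22.3 FPKM to 229, 199 and 169, a ratio of 9.11 (3.12, SE 0.108, limma adjusted p = 2.08e-07). Its IR libraries were spread more widely than those of Orm1, with coefficients of variation of 15.1% and 4.75%. Orm3, the rarest form, went from 2.19, 2.31 and 2.53 FPKM to 37.9, 33.7 and 34.4, a ratio of 15.1 (3.44, SE 0.0631, limma adjusted p = 2.12e-08), with 105 to 128 reads behind its Sham values and 1437 to 1797 behind those of IR. The ratio of Orm3 to Orm1 was 0.00308, 0.00356 and 0.00383 in Sham and 0.0095, 0.00926 and 0.00878 in IR. That of Orm2 to Orm1 was 0.0325, 0.0311 and 0.0338 in Sham and 0.0575, 0.0546 and 0.0432 in IR. In neither ratio did the groups overlap (log2 differences 1.40 and 0.66, exact permutation p = 0.1 for each). Of the 50-base words of the Orm1 transcript, 20.4% also occur in Orm2 and 2.20% in Orm3, and of the 100-base words 6.95% occur in Orm2 and none in Orm3. Reads of Orm1 and Orm2 could therefore have been shared, and with the 3 genes summed, a step added after seeing the data, the log2 fold change was 2.55. By group means Orm1 made up 673 of the summed 698 FPKM in Sham and 3848 of 4083 in IR. The sum is therefore no check on the rises of Orm2 and Orm3.

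A further orosomucoid-like sequence of the cluster moved with them. Gm11212, annotated as an unprocessed pseudogene between Orm1 and Orm3, was at 0.243, 0.158 and 0 FPKM in Sham and at 27.6, 50.2 and 48.5 in IR, a ratio of means of 315 (log2 fold change 5.21, SE 0.216, limma adjusted p = 4.81e-07). IR library 1, which was the highest for Orm1, Orm2 and Orm3, was the lowest for the pseudogene. Of the 50-base words of Orm2, 0.964% occur in it. The flanking gene Col27a1, a collagen chain, was at 0.806 ± 0.0841 and 1.34 ± 0.129 FPKM (0.37), and Akna, on the other side, was at 0.981 ± 0.0685 and 0.729 ± 0.154 and under the filter.

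Lcn2 was at 7.20, 6.64 and 7.05 FPKM in Sham and at 723, 657 and 739 in IR. Both groups were tight (coefficients of variation of 4.17% and 6.12%), and the means stood at a ratio of 101 (log2 fold change 6.47, SE 0.0575, limma adjusted p = 1.90e-09), the third largest on the log2(FPKM + 1) scale. Lcn2 shared no 50-base word with another gene. The gene next to it on the same strand, 1110008P14Rik, which lies 2695 bases away beyond the 3′ end of Lcn2, rose from 3.16 ± 0.199 to 24.9 ± 3.12 FPKM (2.64, limma adjusted p = 1.77e-07). Ptges2, a prostaglandin E synthase gene on the other side, was at 3.26 ± 0.173 and 3.55 ± 0.164 and did not pass (limma adjusted p = 0.144).

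Lcn2 is also a protein of the specific granules of neutrophils, and several markers of these cells rose with it. The 12 neutrophil markers summed to between 11.6 and 12.9 FPKM in Sham and to between 153 and 195 in IR. All 7 that were tested rose, beside 24.3% of all genes tested. Of these, Retnlg, Mmp8 and Cxcr2 reached the filter through IR alone (Sham means of 0.549, 0.183 and 0.0759 FPKM). Their direction was thus set by the filter. Among the markers under the filter were Mpo (means of 0.112 in Sham and 0.169 in IR, with overlapping groups), Elane (0.192 and 0.283) and Ly6g (0.0106 and 0.336). The largest changes were those of Retnlg (4.10), of the calprotectin subunits S100a9 (3.80) and S100a8 (3.55) and of the collagenase Mmp8 (2.80). Of the genes for other specific granule proteins, Ngp was at 1.07, 2.18 and 1.54 FPKM in Sham and at 10.6, 7.20 and 8.60 in IR. Ltf (lactoferrin) was at 0.1695, 0.210 and 0.319 in Sham and at 1.15, 0.845 and 1.01 in IR. Camp was at 0.237, 0.423 and 0.689 in Sham and at 1.75, 1.49 and 0.781 in IR. The collagenase Mmp8 was at 0.204, 0.207 and 0.138 in Sham and at 5.74, 7.57 and 8.63 in IR. On the deposited scale Lcn2 was above the sum of all 12 markers in every IR library. How much of the Lcn2 rise came from neutrophils was not tested.

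The pentraxin pair and Saa4 rose least of the genes, in the order Crp, Saa4 and Apcs. Apcs was at 116, 110 and 115 FPKM in Sham and at 268, 287 and 286 in IR, a ratio of 2.46 (log2 fold change 1.29, SE 0.0461, limma adjusted p = 2.40e-07). Crp was at 94.8, 93.5 and 101 FPKM in Sham and at 144, 181 and 163 in IR, a ratio of 1.68 (0.74, SE 0.0833, limma adjusted p = 9.09e-05). Its groups were separated by the narrowest margin, with the lowest IR library at 1.42 times the highest Sham library. The ratio of Apcs to Orm1 was 0.163, 0.170 and 0.174 in Sham and 0.0671, 0.0788 and 0.0731 in IR (log2 difference -1.22, exact permutation p = 0.1). Dusp23, a phosphatase gene on the Crp side of the pair, fell from 6.39 ± 0.507 to 3.57 ± 0.124 FPKM (-0.69).

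The order of levels on the deposited per-length scale changed between the groups. In Sham Orm1 came first (673 ± 33.1 FPKM, SD, n = 3), followed by Saa4 (126 ± 4.48), Apcs (114 ± 3.05) and Crp (96.6 ± 4.26), none of which overlapped its neighbour. Orm2 (21.9 ± 1.51) and Saa1 (21.6 ± 5.02) overlapped, Saa2 (12.3 ± 3.995) came after them, overlapping Saa1 by its highest library, and Lcn2 (6.97 ± 0.290) followed. Orm3 (2.34 ± 0.174) and Saa3 (2.16 ± 0.238) overlapped at the bottom. In IR injury Orm1 was again first (3848 ± 183), followed by Saa2 (1899 ± 135) and Saa1 (1737 ± 139), which overlapped, and by Lcn2 (706 ± 43.2). Apcs (280 ± 10.9) and Saa4 (272 ± 14.7) overlapped, as did Orm2 (199 ± 30.1) and Crp (163 ± 18.6). Orm3 (35.3 ± 2.23) and Saa3 (16.1 ± 2.23) were again the lowest. Among all genes tested Saa2 moved from rank 2495 by mean FPKM in Sham to rank 32 in IR, Saa1 from 1541 to 38, Lcn2 from 4010 to 66 and Orm1 from 67 to 18.

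This order depended on the gene length by which reads were divided. The deposited values matched a length that joins the annotated exons of all transcripts of a gene. That length was 2478 bases for Saa1, 2518 for Saa2, 2606 for Saa3, 2623 for Lcn2 and 3444 for Crp, while their principal coding transcripts have 609, 652, 555, 915 and 1695 bases. For Saa4, Apcs and the orosomucoids both lengths were the same. Divided by the coding transcript instead, a step added after seeing the data that assumes all reads came from it, the IR means were 7334 for Saa2 and 7068 for Saa1, above Orm1 at 3848, and 2025 for Lcn2, 331 for Crp and 75.7 for Saa3. Saa3 then stood above Orm3 (35.3) and Crp above Apcs and Saa4. In Sham the same step put Crp (196) above Saa4 (126), and Saa1 (88.0) and Saa2 (47.3) above Orm2 (21.9). The ratio of means of a single gene is not touched by this choice, but sums and ratios over genes are.

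**Figure D3:**
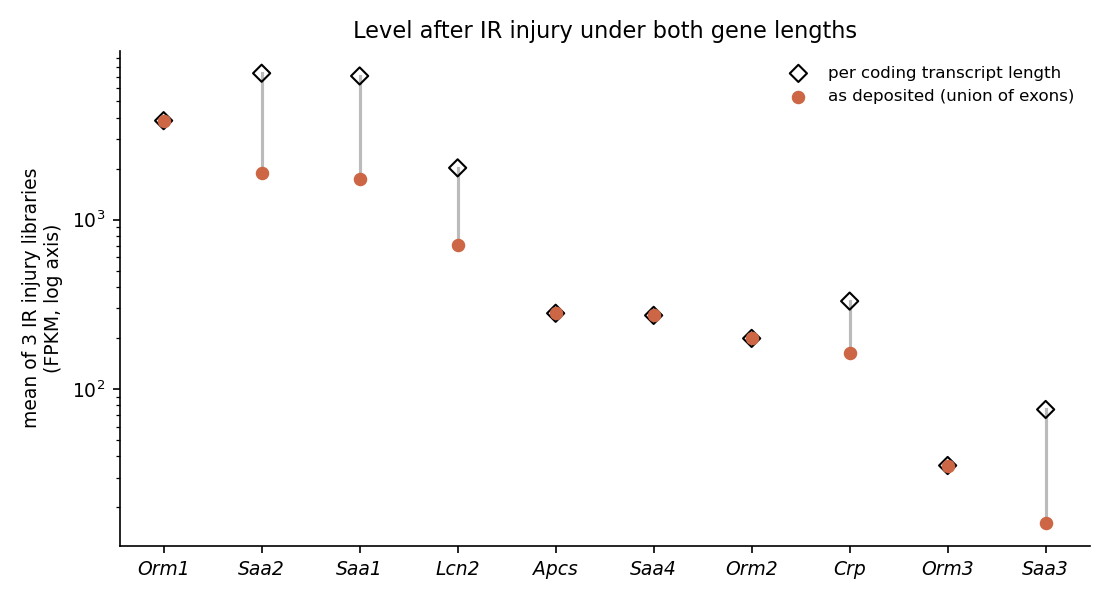
Mean FPKM of the 3 IR injury libraries (log axis) as deposited (filled circles, reads divided by the union of exons) and divided by the principal coding transcript (open diamonds). Saa2 and Saa1 move from 1899 and 1737 to 7334 and 7068, above Orm1 at 3848, while Saa4, Apcs and the orosomucoids stay in place.

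On the deposited scale the 10 genes together held 0.276%, 0.262% and 0.268% of all FPKM in Sham and 2.20%, 2.18% and 2.33% in IR, a ratio of means of 8.33 (exact permutation p = 0.1). In Sham the orosomucoids made up most of this, at 0.174 ± 0.00648%, and the serum amyloid A genes 0.0403 ± 0.00106%. In IR the orosomucoids stood at 0.997 ± 0.0446% and serum amyloid A at 0.958 ± 0.0684%, and the latter was the larger in IR libraries 2 and 3. With reads divided by coding transcript length the families were apart in IR, where serum amyloid A summed to 3.22, 3.79 and 3.85 times the orosomucoids, against 0.412, 0.354 and 0.397 times in Sham. By that length the sum of the 10 genes was 16.5 times as high in IR as in Sham. Lcn2 held 0.00174 ± 5.04e-05% in Sham and 0.172 ± 0.0104% in IR.

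**Figure D4:**
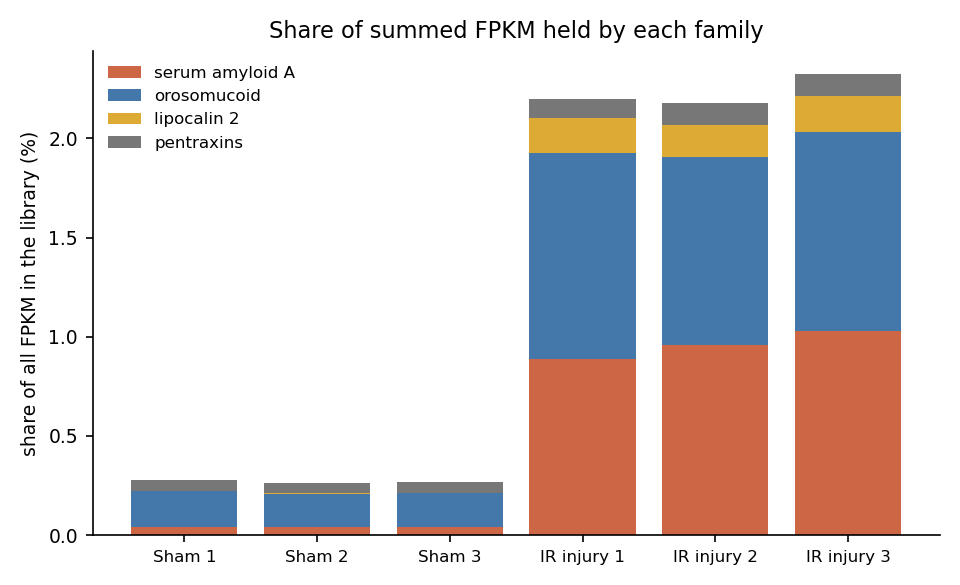
Share of the summed FPKM of each library, in percent, held by serum amyloid A, the orosomucoids, lipocalin 2 and the pentraxins, as stacked bars. The whole rises from 0.262% to 0.276% in the Sham libraries to between 2.18% and 2.33% in the IR libraries.

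In the Sham group 8 of the 10 genes were lowest in library 2 and 7 were highest in library 1. In the IR group no library led in the same way: library 1 was the lowest for 5 genes and the highest for 3. These counts were not made over all genes tested, so they cannot be read as particular to the 10 genes. Ttr, outside the 10, was also lowest in Sham library 2 and highest in library 1 (4273, 3761 and 4021 FPKM). Alb was highest in Sham library 2 (49550 FPKM).

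Genes outside the 10 with the most similar profile over the 6 libraries were sought, as a description. The measure was the Euclidean distance between log2(FPKM + 1) values centred on each gene's mean. The closest match was Sdc4, a heparan sulfate proteoglycan gene, for Apcs (distance 0.0252, with means of 125 and 309 FPKM). Arl13b (0.0535) and Cxadr (0.0791) were closest to Saa4, and Shb (0.0936) and Tubb6 (0.131) to Orm1. Crp was closest to Sult1d1 (0.115), Orm3 to Trp53inp1 (0.146), Saa3 to Map3k6 (0.206) and Orm2 to Gadd45b (0.211). Saa1, Saa2 and Lcn2 had no such close match among these genes: the nearest for each was Cd14, at 0.457, 1.44 and 0.554, with means of 2.78 and 263 FPKM. The distance grows with the size of a change, so these larger distances do not by themselves mark an unusual profile. The 10 genes were not compared with each other in this way.

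Other genes of the acute phase response were compared in the same fit. The counts that follow stand against 24.3% of all genes tested that were higher and 53.8% that were lower. Of 21 positive reactants, 19 rose and 2 fell, with a median log2 fold change of 1.46. Rescaled to TPM 18 rose, as C4b (0.13) then did not pass (0.09, limma adjusted p = 0.0835). The largest rises were those of the metalloreductase Steap4 (4.99), the interleukin 1 receptor antagonist Il1rn (4.25), the protease inhibitor Serpina3n (3.59) and the glycoprotein Lrg1 (2.93). The 2 that fell were C3 (-0.22) and Cfb (-0.34), both of complement and named after their values were seen. C3 stood at means of 1997 FPKM in Sham and 1707 in IR, but Cfb at 1.94 and 1.33, just above the filter. Neither fell under every scaling: C3 was at 0.08 with median-of-ratios scaling and Cfb did not pass with quantile normalization (limma adjusted p = 0.249). Of 10 negative reactants, 7 fell and none rose, a share near the 53.8% of all genes that fell. The corticosteroid-binding globulin Serpina6, from 248 ± 3.33 to 61.7 ± 1.72 FPKM (-1.99), fell most. Igf1 (-0.39) and Pon1 (-0.33), an enzyme of high-density lipoprotein, and Ttr (-0.29) were next, but with median-of-ratios scaling Serpina6 alone of the 10 fell and 3 rose, namely Trf (0.14), Ahsg (0.23) and F12 (0.28), with Ttr at 0.01.

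Of 23 receptors, kinases and transcription factors through which cytokines act on these genes, 22 were tested, of which 16 rose and 6 fell, beside 24.3% and 53.8% of all genes. Among those that rose, Osmr had a Sham mean of 0.755 FPKM and reached the filter through IR alone, which set its direction. The feedback inhibitor Socs3 rose from 3.49, 3.04 and 3.52 FPKM to 127, 126 and 125 (log2 fold change 4.87), and the interleukin 1 receptor Il1r1 from 6.22, 6.996 and 6.04 to 144, 142 and 146 (4.29). The factors Cebpd (1.98), Stat3 (1.94), Cebpb (1.64), Rela (1.11) and Nfkb1 (0.81) rose, as did the NF-kappaB cofactor Nfkbiz (1.62), the receptor Tnfrsf1a (1.44) and the shared receptor chain Il6st (0.97). Among those that fell were Tyk2 (-0.90), the glucocorticoid receptor Nr3c1 (-0.74), Lifr (-0.56), Il1rap (-0.53) and Cebpa (-0.30), of which Cebpa was at 0.00 and did not pass with median-of-ratios scaling. Among 9 cytokines only Il1b (1.16, 0.724 and 0.753 FPKM in Sham; 8.76, 8.79 and 10.3 in IR) and Il1a (1.66, 1.71 and 1.20; 1.09, 2.04 and 2.29) reached the filter, and Il1b rose (2.46) while Il1a did not pass (limma adjusted p = 0.495), although it did without IR library 1 (0.33, limma adjusted p = 0.0248). With quantile normalization Il1a also passed (0.39, limma adjusted p = 0.0447). Il6 was listed at 0, 0.0344 and 0 FPKM in Sham and was at 0.531, 0.484 and 0.579 in IR, and Tnf was between 0.213 and 0.296 in all libraries.

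**Figure D5:**
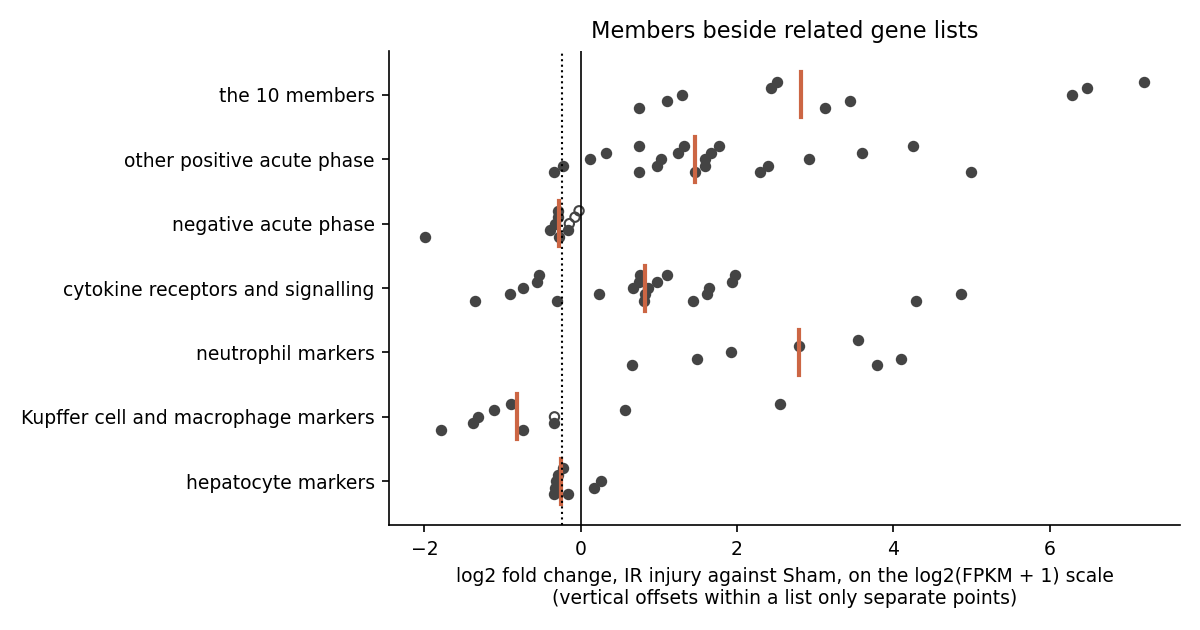
Log2 fold change of the 10 genes and of the tested genes of 6 related lists. Filled points passed an adjusted p of 0.05, open points did not, the orange bars are list medians (2.82 for the 10 genes, 1.46 for other positive reactants), and the dotted line is the median of all genes tested.

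Of 14 receptors and partners of these proteins, 8 were tested, of which 4 rose and 2 fell, beside 24.3% and 53.8% of all genes. With median-of-ratios scaling 6 rose and 2 fell. Tlr2 (1.32) and the formyl peptide receptor Fpr2 (1.14), both described as receptors of serum amyloid A, rose, as did Fpr1 (0.55). The pentraxin-binding Fc receptor Fcgr3 rose (1.16), and Fcgr2b fell from 7.50 ± 0.636 to 3.18 ± 0.874 FPKM (-1.04). The scavenger receptor Cd36 fell (-1.39), while Scarb1, the hepatic receptor for high-density lipoprotein, was at 21.7 ± 0.400 and 21.9 ± 0.588 and did not pass (limma adjusted p = 0.836), although it rose by 0.30 with median-of-ratios scaling. The Lcn2 receptor gene Slc22a17 was under the filter, at 0.394 ± 0.0684 and 0.131 ± 0.0606.

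The markers of other cells that could hold these transcripts were as follows. Macrophages are a known source of Saa3. Of 10 tested Kupffer cell and macrophage markers, 7 fell and 2 rose, close to the 53.8% and 24.3% of all genes, and the 12 in the table summed to between 269 and 275 FPKM in Sham and between 142 and 176 in IR. Chil3 rose (2.55), and Adgre1 (-1.79), Vsig4 (-1.38) and Csf1r (-1.32) fell. The 6 adipocyte markers summed to at most 0.0335 FPKM in Sham and 0.468 in IR, under the lowest Saa3 value of each group. The 6 cholangiocyte markers summed to between 24.2 and 27.9 FPKM in Sham and between 31.1 and 42.5 in IR. The 3 that were tested, Sox9 (0.93), Spp1 (0.45) and Epcam (0.27), were higher, beside 24.3% of all genes. Sox9 and Epcam had Sham means of 0.628 and 0.843 FPKM and reached the filter through IR alone, which set their direction. Krt19, Krt7 and Muc1 were under the filter, and their groups overlapped. Of 8 hepatocyte markers, 6 fell and 2 rose, with Asgr1 (-0.34), Cps1 (-0.33) and Apoc3 (-0.32) among those lower, but none fell and 3 rose with median-of-ratios scaling. Among the 6 markers of sinusoidal endothelium Lyve1 rose (1.54) and 4 fell, Kdr the most (-2.05), and of 5 tested stellate cell markers 4 fell (Colec11 at -1.95), again beside 53.8% of all genes. The part of any of these cells in the rises of the 10 genes was not tested.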

How the data were processed

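RNA from liver was sequenced in 3 Sham and 3 IR injury libraries, grouped by title. A single table of FPKM, with a column for each library, was deposited by the authors. The submitters' processing notes name mm10 as the genome build. Aligner, counter and annotation: not given in the sources used here. FPKM times the GENCODE M21 exon length and a library total gave whole reads within 0.05 in all libraries for 98.3% of genes above 0, the 10 members included. Totals rebuilt in this way are counting depths only, at which 3 reads were 4.18e-06% to 5.59e-06% of a library.

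Genes with a mean of at least 1 FPKM were tested with limma 3.58.1 under R 4.3.3, by two-sided moderated tests with a mean-variance trend, after adding a pseudocount of 1 and taking log2, which understates fold changes of low genes. A gene with a mean under 1 FPKM in 1 group could reach this filter only through the other group, which set its direction beforehand. Among the genes named above this also held for Il1b, Chil3, Gm11212, Col27a1 and Map3k6, low in Sham, and for Kdr, low in IR injury. P-values were adjusted over all 10316 genes by Benjamini-Hochberg, with a threshold of 0.05. SE is the standard error that limma gave; ± marks the SD of 3 libraries. Ratios and shares were compared by exact two-sided permutation tests. Simulated reads with known changes served to check the script. The replicate numbers were not taken to pair the libraries.

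The members, lists and the rule for named genes (all members, up to 4 largest passing changes per list, any gene of the cytokine, signalling and receptor lists, and nearest profiles) were chosen with earlier results of these data known. Other genes were also named outside this rule, among them Ngp, Ltf, Camp, Mpo, Elane, Ly6g and Cxcr2 of the neutrophil markers. Trf, Ahsg, F12, Rbp4, Apoa1, Apob, C4b, Pdgfrb, Krt19, Krt7 and Muc1 were likewise named outside it. The alternatives were other pseudocounts, filters, scalings, variance models, a replicate block, limma voom on rebuilt reads and leaving out each library. Promoter windows are from RefSeq, and 9 of the 10 genes matched by symbol. Neighbouring genes are named by position. Summaries came from Python 3.11.15 with scipy 1.17.1. A gene of the signalling list is counted but not reported here by name.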

Additional observations from a re-analysis of the deposited data

How the results depend on the processing

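All 10 genes were higher and past the threshold under every alternative run. Their largest adjusted p over the limma alternatives was 0.000805, that of Crp with no filter on low values. Among the 10, summed paralogs aside, the log2 fold change ranged most for Orm1, from 2.23 with quantile normalization to 2.81 with median-of-ratios scaling. The count of all genes past the threshold was 8053, 12245 with no filter and 3932 with a filter at a mean of 5 FPKM, where different numbers of genes were tested. The 7 negative reactants that fell were 1 with median-of-ratios scaling. Under that scaling signs turned for Alb (0.0181), Ttr (0.0110) and Cebpa (0.0024), which no longer passed, for Trf, which passed in both directions (-0.16 and 0.14), and for Rbp4, Apoa1, Ahsg, F12, C3, Apob and Pdgfrb. Scarb1 was at -0.0189 rescaled to TPM, and without 1 library each it lay between -0.0068 and 0.0300, being -0.0018 without Sham library 1. The cause of these changes was not tested. With the replicate number as a block, 7964 genes passed and the 10 were again higher. The deviations of libraries of the same number correlated at -0.0389, 0.0117 and -0.104. They showed no sign of a pairing by number, which 3 libraries per group cannot exclude. Without 1 library each, the log2 difference of the Saa1 to Saa2 ratio lay between -1.06 and -0.92, and the rise in the share of the 10 genes between 1.92 and 2.00 percentage points. At this depth the members rested on at least 105 reads per library.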
